A study of Homo sapiens with 12 samples.

Results

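Genes of the BCL2 family, whose proteins decide whether the mitochondrial pathway of cell death runs, were followed through senescence of the EndoC-βH3 line. The 10 members were taken by name from the 35337 genes of the expression table, and all of them had a row there. They were the pro-survival genes BCL2, BCL2L1, BCL2L2 and MCL1, the effector genes BAX and BAK1, and the BH3-only genes BBC3, PMAIP1, BID and BCL2L11. In senescent cells BCL2L2 was higher and the BH3-only genes BCL2L11, BID and PMAIP1 were lower. BBC3, a BH3-only gene with almost no reads in non-senescent cells, was read in every senescent library.

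The pro-survival proteins hold the effectors BAX and BAK in check at the outer mitochondrial membrane. BH3-only proteins bind the pro-survival proteins through a short helix, the BH3 domain, and some of them also engage BAX and BAK directly. Freed effectors assemble into pores that release cytochrome c, which with APAF1 switches on caspase 9 and then the caspases downstream of it. Senescent cells of several kinds are known to lean on BCL2L1, BCL2L2 or BCL2 for their survival. Beta cells are known to depend on BCL2L1, and BBC3 and BCL2L11 are known mediators of their death under stress.

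The data were CEL-seq2 profiles, in which 1 tag at the 3′ end of each transcript is read, of 12 libraries. EndoC-βH3 is an immortalised human beta-like line established from fetal pancreas, and all cells of both groups carry the CreER recombinase and began with hTERT and SV40 large T antigen. The 6 senescent libraries came from cells given 4-hydroxy-tamoxifen for 3 weeks, which activates CreER and excises both transgenes, and the 6 non-senescent libraries came from control cells without that induction, so that senescence, transgene loss and the drug itself cannot be told apart. Batch A held 2 libraries per group and batch B held 4, and the samples come from 1 cell line, so p-values measure the spread between cultures or libraries of that line.

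Depth was 8873569 to 17106776 reads per library in batch A and 4672924 to 7063264 in batch B. Of 4 genes chosen as checks of the labelled state 3 were called, CDKN1A, which encodes p21, higher (24.5 to 76.0 normalised read counts in non-senescent and 133 to 1501 in senescent libraries), and the proliferation genes MKI67 (411 to 735 and 63.7 to 88.4) and TOP2A lower. MDM2 was not called (limma adjusted p 0.101), with a log2 fold change of -0.43 in batch A and 0.78 in batch B. All 4 passed the interaction of batch and group (adjusted p 0.00191 to 0.0220), and CDKN1A changed by 2.18 in batch A and by 4.78 in batch B on the log2 scale. Of 5 beta-cell markers 3 were called higher, INS, IAPP and PDX1 (log2 fold changes of 2.23, 1.87 and 0.59). INS was at 11021 to 34331 normalised read counts in non-senescent and 49685 to 185508 in senescent libraries. NKX6-1 had a log2 fold change of -0.37 (limma adjusted p 0.0137) and CHGA of 0.20 (adjusted p 0.0653), both under the fold limit. SST was read in every library too. It encodes somatostatin and was at 159785 to 287479 normalised read counts in non-senescent and 114932 to 142626 in senescent libraries. In non-senescent cells SST thus had more reads than INS. Of 10 genes that mark other cell types 8 were tested, of which 4 were called lower (GCG, SST, KRT19 and PTPRC) and 1 higher (CPA1). PTPRC had few reads, 68 non-senescent and 26 senescent. With group means of 13.5 and 3.26 normalised read counts, it reached the mean of 5 needed for testing only through the non-senescent group. Its log2 fold change was -2.20 for batch B but -0.34 for batch A, and its groups were not separate in both batches. The summed level of the 10 genes was 23906 to 40885 ppm of the reads in non-senescent and 15066 to 19367 in senescent libraries, and the pancreatic polypeptide gene PPY had 3 and 0 reads in all. The part of these cells or transcripts in the results below was not tested. In bulk RNA, fewer cells that express a gene and less RNA of it per cell cannot be told apart.

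Promoter sequences of the 3 BH3-only genes with a single entry among the RefSeq promoter windows used (GRCh38.p14) are shown because they carry the changes described below, BBC3 upward and PMAIP1 and BCL2L11 downward. Each window runs from 250 bases before the transcription start to 50 bases after it, 5′ to 3′ on the gene's strand, with GC boxes (GGGCGG on either strand) and CCAAT boxes (CCAAT on either strand) in capitals. BBC3 lies on the minus strand at chr19:47232618-47232917, PMAIP1 on the plus strand at chr18:59899746-59900045 and BCL2L11 on the plus strand at chr2:111120664-111120963.
BBC3: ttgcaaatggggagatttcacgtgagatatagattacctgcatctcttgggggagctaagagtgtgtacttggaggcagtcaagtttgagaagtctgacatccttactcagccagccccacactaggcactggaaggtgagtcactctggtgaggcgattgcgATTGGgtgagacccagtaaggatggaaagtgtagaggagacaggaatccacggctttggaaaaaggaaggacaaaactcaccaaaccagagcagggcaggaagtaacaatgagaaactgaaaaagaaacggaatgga
PMAIP1: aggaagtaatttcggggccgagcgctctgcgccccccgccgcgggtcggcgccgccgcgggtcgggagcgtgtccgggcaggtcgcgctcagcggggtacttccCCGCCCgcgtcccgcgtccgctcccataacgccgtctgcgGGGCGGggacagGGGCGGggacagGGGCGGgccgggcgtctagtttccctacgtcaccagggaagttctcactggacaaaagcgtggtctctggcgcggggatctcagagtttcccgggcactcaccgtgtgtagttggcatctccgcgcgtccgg
BCL2L11: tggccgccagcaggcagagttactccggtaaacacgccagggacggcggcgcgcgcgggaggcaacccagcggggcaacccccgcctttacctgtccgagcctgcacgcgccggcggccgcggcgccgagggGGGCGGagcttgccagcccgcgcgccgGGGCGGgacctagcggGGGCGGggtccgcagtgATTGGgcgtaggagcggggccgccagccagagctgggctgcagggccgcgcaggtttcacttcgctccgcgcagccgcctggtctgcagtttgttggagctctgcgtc

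The BBC3 window had a GC content of 48.0% and 1 CCAAT box at position -87, and no GC box. The PMAIP1 window had a GC content of 71.3% and 4 GC boxes, and that of BCL2L11 had 74.7%, 3 GC boxes and 1 CCAAT box at position -58. Of 35116 RefSeq promoter windows of the same length, 45.0% held a GC box and 34.6% a CCAAT box. The 13 windows of 8 members were searched on both strands. BCL2L2, the tested member called higher, and MCL1 had no entry and were not searched. None of the 13 windows held the E2F motifs TTTGGCGC or TTTCCCGC (2.27% of all windows) or the FOXO motif TTGTTTAC (0.954%). Motifs this rare are seldom met in so few windows, so their absence says little. The windows leave out introns, more distant sites and any start without an entry. In GENCODE v44 BBC3 has 4 coding transcripts, PMAIP1 2 and BCL2L11 6, so the printed window need not be the only promoter of its gene. A match describes letters and not binding.

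Of the 10 members, 8 had a mean of 5 or more normalised read counts and were tested, which BCL2 and BBC3 did not reach. A gene was called when its adjusted p in limma was under 0.1 over all 13847 genes tested and its fold change was over 1.5. Of the 8 tested members 4 were called, 1 higher and 3 lower, where 23.4% of all tested genes were called, 11.6% higher and 11.8% lower. At an adjusted p under 0.1 and any fold, 6 of the 8 passed, beside 45.5% of all tested genes. The groups were fully separate in each batch, in the same direction, for 2 members that were higher (BCL2L1 and BCL2L2) and 3 that were lower (PMAIP1, BID and BCL2L11). Among all tested genes such separation was seen for 11.9% in the higher and 11.9% in the lower direction. The values of the 10 genes in each library are plotted by group and batch.

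**Figure D1:**
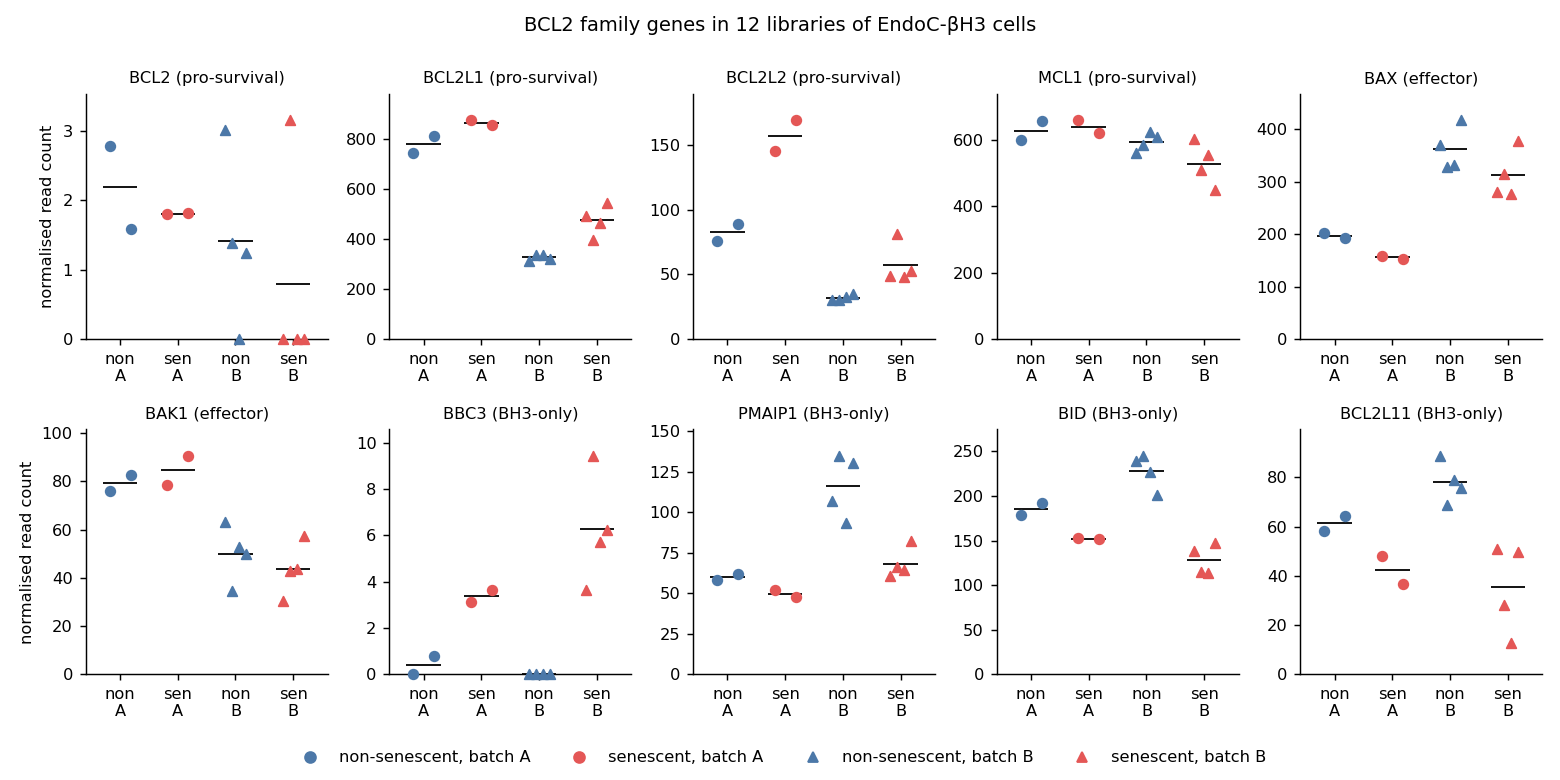
Normalised read counts (linear vertical axes that start at 0, 1 panel per gene) of the 10 BCL2 family genes in non-senescent (blue, non) and senescent (red, sen) libraries of batch A (circles, 2 per group) and batch B (triangles, 4 per group), with each black line at the mean of its group and batch. BCL2L1 and BCL2L2 lie higher, and PMAIP1, BID and BCL2L11 lower, in senescent libraries of both batches, and BBC3 is at 0 in 5 of 6 non-senescent libraries.

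Among the pro-survival genes BCL2L2, which encodes BCL-W, rose. In batch A it was read at 76.1 and 89.0 normalised read counts in non-senescent and at 145 and 169 in senescent libraries. In batch B the non-senescent libraries held 30.1, 30.3, 32.1 and 34.8, and the senescent ones 48.5, 80.8, 48.1 and 52.3. Every senescent library was above every non-senescent library of its batch. The log2 fold change was 0.84 ± 0.16 (SE) or 1.79-fold (limma adjusted p 0.000427). Batch A alone gave 0.92 and batch B 0.80. Without the batch term the call was lost (adjusted p 0.204), since the level of BCL2L2 in batch B was far below that in batch A. Batch B counts rest on 20 to 28 reads per non-senescent library. BCL2L2 (chromosome 14, 23298790 to 23311751) is spanned at its 3′ end, on the same strand, by the read-through gene BCL2L2-PABPN1, which had 1 read over the 12 libraries. PPP1R3E (5943 reads) and HOMEZ (970 reads) overlap BCL2L2 on the other strand but do not cross its 3′ end. Their part in its reads was not tested.

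BCL2L1, which encodes BCL-XL, was 1.32-fold higher, which is under the fold limit. Its non-senescent libraries held 744 and 811 normalised read counts in batch A and 312, 337, 338 and 318 in batch B. The senescent libraries held 874 and 853 in batch A and 493, 397, 462 and 544 in batch B. The groups were separate in both batches, by a wide gap in B and a narrow one in A. The log2 fold change was 0.40 ± 0.09 (SE, limma adjusted p 0.00203). Batch A alone gave 0.15 and batch B 0.53. Reads at the 3′ end of BCL2L1 (chromosome 20, 31664452 to 31723989) do not tell its long pro-survival from its short pro-death splice form.

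MCL1 encodes a pro-survival protein with a short life that binds NOXA, BIM and BAK. It was read at 599 and 656 normalised read counts in non-senescent and at 659 and 621 in senescent libraries of batch A, and at 560 to 622 and 448 to 603 in those of batch B. The groups overlapped in both batches. The log2 fold change was -0.11 (limma 95% confidence interval -0.28 to 0.07, adjusted p 0.332), so that a change of 1.5-fold lay outside the interval. ADAMTSL4, which crosses the 3′ end of MCL1 (chromosome 1, 150560895 to 150579738) on the other strand, had 36 reads over the 12 libraries, beside 3615 of MCL1 in the non-senescent and 4323 in the senescent group. ADAMTSL4-AS1 crosses it on the same strand, and its reads are not reported here.

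BCL2, the founding member of the family, was hardly read. It had 11 reads over the 6 non-senescent libraries and 10 over the 6 senescent ones, with 0 to 5 reads in a library. The rate of reads per effective depth was 0.736-fold that of non-senescent cells, with an exact 95% Poisson interval from 0.280 to 1.91 that covers counting error only. A difference was not detectable at this depth.

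The effector BAX was 0.837-fold in senescent cells, under the fold limit. It had 202 and 193 normalised read counts in non-senescent and 158 and 153 in senescent libraries of batch A, and 370, 329, 332 and 417 against 281, 315, 277 and 379 in batch B. The groups were separate in batch A and overlapped in batch B, where senescent replicate B4 lay above 3 of the 4 non-senescent libraries. The log2 fold change of BAX (chromosome 19, 48954815 to 48961798) was -0.26 ± 0.10 (SE, limma adjusted p 0.0499). BAK1, which encodes the other effector, had 34.4 to 82.7 normalised read counts in non-senescent and 30.3 to 90.6 in senescent libraries, and the groups overlapped in both batches. Its log2 fold change was -0.10 (limma 95% confidence interval -0.49 to 0.29, adjusted p 0.701). Batch A alone gave 0.09 and batch B -0.20.

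The BH3-only gene BCL2L11, which encodes BIM, fell most among the tested members. In batch A it was read at 58.4 and 64.4 normalised read counts in non-senescent and at 48.0 and 36.8 in senescent libraries. In batch B the non-senescent libraries held 88.8, 68.8, 78.9 and 75.8, and the senescent ones 50.9, 28.3, 12.6 and 49.8. All senescent libraries of a batch were below all non-senescent ones, but they varied among themselves, and senescent replicate B3 rested on 11 reads. The log2 fold change was -1.04 ± 0.28 (SE, limma adjusted p 0.00657) or 0.485-fold. Batch A alone gave -0.53 and batch B -1.30, and leaving out senescent replicate B3 gave -0.76. Tags at the 3′ end of BCL2L11 (chromosome 2, 111119378 to 111168444) do not separate the splice forms of BIM, and the antisense gene MIR4435-2HG crosses that end. Its share of the reads is not reported here.

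BID encodes the protein that caspase 8 cleaves to carry death receptor signals to mitochondria. It fell from 179 and 192 to 153 and 152 normalised read counts in batch A. In batch B it was read at 239, 245, 226 and 201 in non-senescent and at 138, 114, 113 and 147 in senescent libraries. The groups were separate in both batches and the gap was wider in B. The log2 fold change of BID (chromosome 22, 17734138 to 17774770) was -0.65 ± 0.12 (SE, limma adjusted p 0.000356) or 0.638-fold. Batch A alone gave -0.28, which did not pass the fold limit, and batch B -0.83.

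PMAIP1 encodes NOXA, which chiefly neutralises MCL1. Its non-senescent libraries held 58.4 and 62.0 normalised read counts in batch A and 107, 135, 93.5 and 130.5 in batch B. The senescent libraries held 52.1 and 47.7 in batch A and 60.6, 66.1, 64.1 and 82.2 in batch B. All senescent libraries lay below the non-senescent ones of their batch. The log2 fold change was -0.59 ± 0.15 (SE, limma adjusted p 0.00443) or 0.663-fold. Batch A alone gave -0.27 and batch B -0.76. This lay at the fold limit, and PMAIP1 (chromosome 18, 59899996 to 59904305) was under it when any of 5 libraries was left out: non-senescent replicate B2 (-0.53) or B4 (-0.54), or senescent replicate B1 (-0.54), B2 (-0.57) or B3 (-0.56). The adjusted p was 0.0111 to 0.0130 in those 5 fits.

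BBC3, which encodes PUMA, a potent binder of all pro-survival members, went the other way. It had 1 read over the 6 non-senescent libraries, in replicate A2, and 35 over the 6 senescent ones. The senescent libraries held 7 and 6 reads in batch A and 3, 9, 5 and 5 in batch B, which are 3.14 to 9.45 normalised read counts. Reads were thus found in 6 of 6 senescent and 1 of 6 non-senescent libraries. The rate per effective depth was 28.3 times that of non-senescent cells, with an exact 95% Poisson interval from 4.76 to 1150.1 for counting error alone. BBC3 (chromosome 19, 47220822 to 47232766) was below the filter, and in a fit without the filter it was called higher (limma adjusted p 5.45e-05), as were 7.24% of the 22707 genes of that fit. That p-value rests on a non-senescent group at the floor, with 0 reads in every library of batch B. It adds little to the reads themselves. The level of BBC3 stayed low. It was at 0.626 ppm of the reads over the senescent libraries, where 3 reads in 1 of the 12 libraries are 0.175 to 0.642 ppm.

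**Figure D2:**
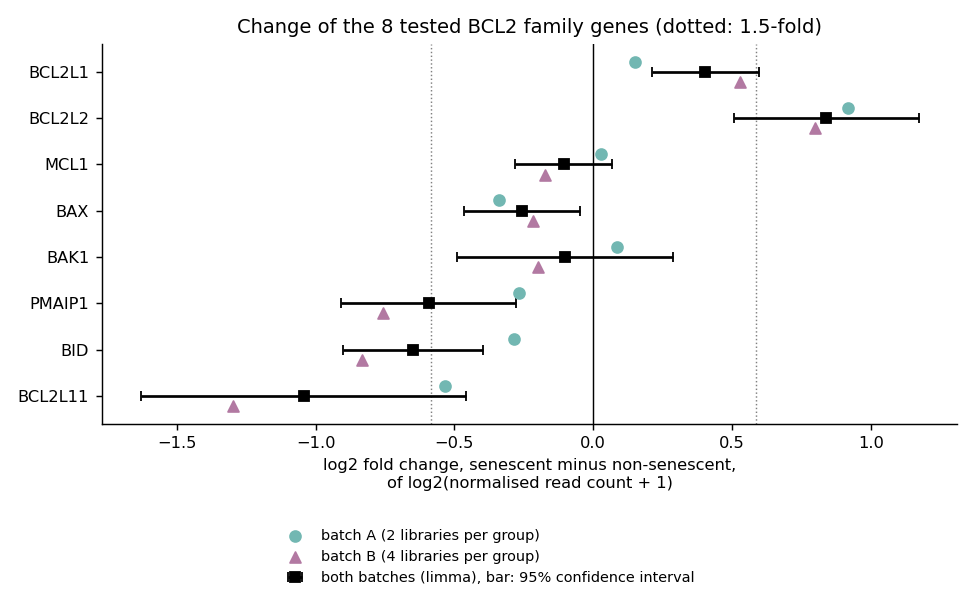
Log2 fold change of senescent against non-senescent cells on the log2(normalised read count + 1) scale (horizontal axis) for the 8 tested genes, as the limma estimate over both batches (black squares, bars are 95% confidence intervals), in batch A alone (circles) and in batch B alone (triangles), with dotted lines at 1.5-fold. BCL2L2 lies beyond the limit on the higher side (0.84) and PMAIP1, BID and BCL2L11 on the lower side (-0.59, -0.65 and -1.04).

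Whether the change differed between batches was asked with the interaction of batch and group. Of the 8 tested members 0 passed an adjusted p under 0.1 in limma, where 4.21% of all tested genes did, and 2 had an unadjusted p under 0.05, as had 15.2% of all tested genes. These were BID, whose log2 fold change in batch B minus that in batch A was -0.55 ± 0.21 (SE, adjusted p 0.214), and BCL2L1, for which it was 0.38 ± 0.17 (SE, adjusted p 0.283). The levels themselves differed between batches. Non-senescent cells had a mean of 778 normalised read counts of BCL2L1 in batch A and 326 in batch B, and 82.6 and 31.8 of BCL2L2. PMAIP1 was on the other side, at 60.2 (batch A) and 116 (batch B). Levels are therefore compared within a batch.

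Because each transcript gives a tag at its 3′ end, normalised read counts were not divided by length, and their order among the 10 genes is a description. In non-senescent cells of batch B it ran from MCL1 (mean of 593) through BAX (362), BCL2L1 (326), BID (228), PMAIP1 (116), BCL2L11 (78.1), BAK1 (50.0) and BCL2L2 (31.8) to BCL2 (1.41) and BBC3, which had no read there. Neighbours whose libraries overlapped there, such as BAX and BCL2L1, are not told apart by this order. The order differed in batch A. Its non-senescent cells had BCL2L1 (778) above MCL1 (628), and BCL2L2 (82.6) above BCL2L11 (61.4) and PMAIP1 (60.2). In senescent cells of batch B BCL2L1 (474) stood above BAX (313), with no overlap of their libraries, and BCL2L2 (57.4) above BCL2L11 (35.4) and BAK1 (43.5), where libraries overlapped. BCL2L1 was at 0.762 to 1.03 times the level of BAX in non-senescent and at 1.26 to 1.75 times in senescent libraries of batch B. In batch A this ratio was 3.69 and 4.20 in non-senescent and 5.52 and 5.56 in senescent libraries. The ratio was higher in all senescent than in all non-senescent libraries of each batch.

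The make-up of the reads of these 10 genes shifted between the roles. The 4 pro-survival genes made up 71.3% and 72.4% of the summed normalised read count of the 10 genes in non-senescent and 77.3% in both senescent libraries of batch A. In batch B they made up 51.0% to 55.9% in non-senescent and 59.2% to 67.3% in senescent libraries. The 4 BH3-only genes decreased as a share, from 14.8% in both libraries to 11.3% and 11.8% in batch A and from 22.2% to 25.4% down to 12.4% to 16.1% in batch B. The share of the effectors was 12.8% and 13.9% against 10.9% and 11.5% in batch A, and it overlapped in batch B (20.6% to 25.4% and 18.2% to 24.7%). The 10 genes together took 0.0248% to 0.0305% of the reads of non-senescent and 0.0211% to 0.0283% of those of senescent libraries. These shares weigh genes by their reads, so BCL2L1, MCL1, BAX and BID dominate them and BBC3 and BCL2 hardly count. They hold for the 10 genes only, since the BH3-only genes BMF, BAD, BIK and HRK were not summed. BMF, at 10.5 to 234 normalised read counts in non-senescent and 8.01 to 380 in senescent libraries, was higher in senescent cells of batch A. Its log2 fold change was 0.67 there and -0.74 in batch B. For BAD, BIK and HRK it was negative in both batches.

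**Figure D3:**
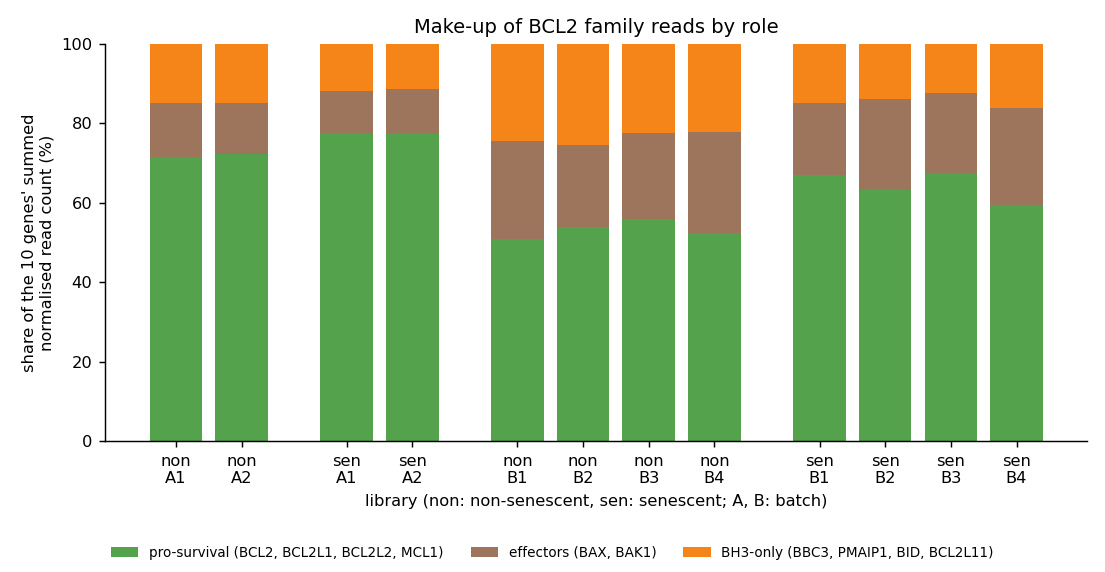
Share (%, vertical axis from 0 to 100) of the summed normalised read count of the 10 genes held by pro-survival (green), effector (brown) and BH3-only genes (orange) in each of the 12 libraries, ordered by batch and group (non, non-senescent; sen, senescent). The BH3-only share is lower in all senescent than in all non-senescent libraries of the same batch, at 11.3% to 16.1% against 14.8% to 25.4% over both.

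Genes that act with the members were read from 5 lists of 50 genes, of which 46 were tested, 3 called higher and 7 called lower. That is 21.7% called, beside 23.4% of all tested genes (11.6% higher and 11.8% lower), so by calls the lists as a whole are near the background. The counts of each list below are near it too or too small to be read against it. The genes are given for their own values. At an adjusted p under 0.1 in limma and any fold, 67.4% of the 46 passed, beside 45.5% of all tested genes. The groups were separate in both batches for 9 genes that were higher and 7 that were lower. Among all tested genes this held for 11.9% in each direction. Among 12 other tested genes of the family BCL2L10, a pro-survival gene, was higher (23 reads without and 85 with senescence, log2 fold change 1.40 ± 0.35, limma adjusted p 0.00405). Its mean normalised read count was 4.07 without and 13.8 with senescence, so it passed the filter only through the group where it was high. BCL2L12, a relative with a divergent sequence, was lower (-2.11 ± 0.26, adjusted p 5e-06), and so was the BH3-only gene BIK (-0.74 ± 0.19, adjusted p 0.0047). The other 9 were not called, among them BAD (-0.46), HRK (-0.93, adjusted p 0.189) and BMF (-0.27), which are BH3-only genes too. For BMF this value averages batches of opposite sign, 0.67 for A and -0.74 for B. BAD passed the limit on adjusted p (limma, 0.0113) but not on fold, with -0.03 for batch A and -0.68 for B. HRK was negative in both (-0.61 for A, -1.08 for B). BCL2A1 had 0 and 3 reads and was not tested.

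Of 6 tested genes of the apoptosome and caspases 1 was called, and it was lower. This was CASP10, an initiator caspase of death receptors, which acts upstream of mitochondria and passed only narrowly (log2 fold change -0.70, limma adjusted p 0.0812) and lost the call in 9 of 12 fits that left out 1 library, all but those without non-senescent replicate B2, senescent replicate B1 or senescent replicate B4. APAF1 had a log2 fold change of -0.29 (adjusted p 0.317) and CASP9 of -0.14 (adjusted p 0.735). Of 7 tested inhibitors of apoptosis proteins and their antagonists 2 were lower. These were BIRC5, which encodes survivin and serves in mitosis too (-1.66 ± 0.17, adjusted p 7.48e-07), and HTRA2, which encodes a mitochondrial protease that antagonises XIAP (-0.89 ± 0.10, adjusted p 2.42e-06). BIRC5 fell by 2.33 in batch A and by 1.32 in batch B on the log2 scale (adjusted interaction p 0.0645). XIAP had a log2 fold change of 0.20 (adjusted p 0.203).

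Among 14 tested partners of the family and genes for their turnover 1 was called, BTRC, which encodes a ubiquitin ligase subunit that can mark MCL1 and BIM for decay. It was higher, with a log2 fold change of 0.74 ± 0.15 (limma adjusted p 0.00103). DYNLL1 and DYNLL2 encode the dynein light chains that hold BIM and BMF at the cytoskeleton, and had log2 fold changes of -0.45 and 0.57, under the fold limit.

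Of 7 tested regulators of BH3-only genes 2 were lower and 1 higher. E2F1, a cell-cycle factor known to activate BBC3, PMAIP1 and BCL2L11, fell from 1005 to 165 normalised read counts (log2 fold change -2.64 ± 0.11, limma adjusted p 7.07e-12). TP73 had few reads, 52 and 12, and with means of 10.8 and 2.15 it passed the filter only through the non-senescent group. It was called lower (-1.83, adjusted p 0.0425), and lost the call without non-senescent replicate B3 (-1.56, adjusted p 0.103) or B4 (-1.53, adjusted p 0.109). FOXO3, which is known to activate BCL2L11 and BBC3, was higher (0.86 ± 0.10, adjusted p 2.8e-06). DDIT3, which encodes the stress factor CHOP, and ATF4 had log2 fold changes of -0.05 and 0.00 (adjusted p 0.877 and 0.987). Both values average batches of opposite sign. DDIT3 had 0.64 in batch A and -0.39 in batch B, and ATF4 0.25 and -0.13 (limma adjusted interaction p 0.198 and 0.154).

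**Figure D4:**
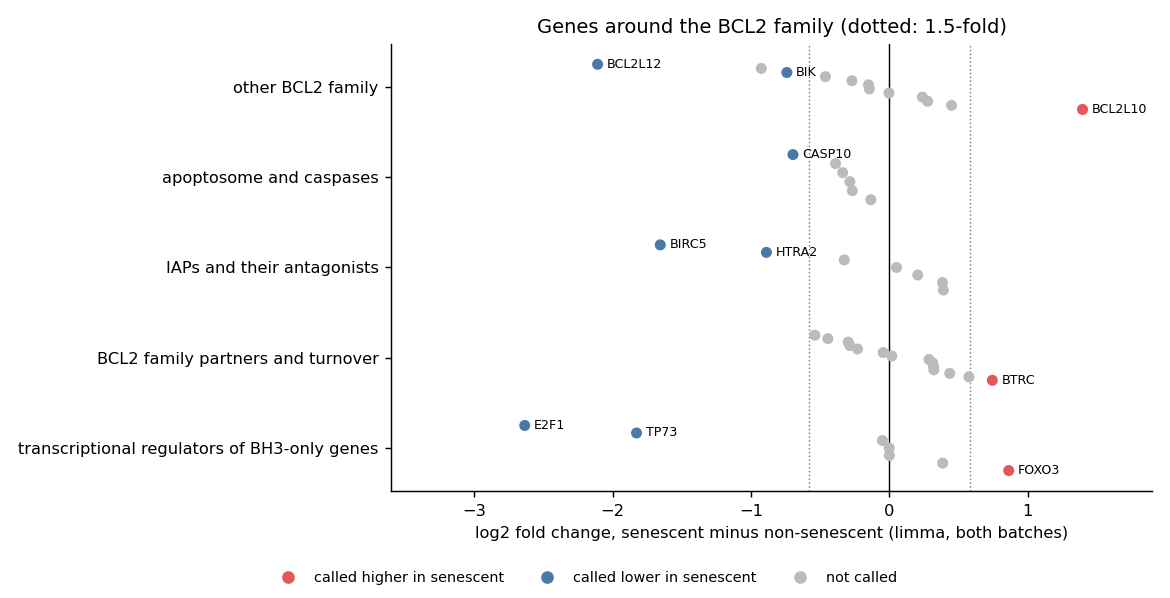
Log2 fold change of senescent against non-senescent cells (horizontal axis, limma over both batches, dotted lines at 1.5-fold) of 46 tested genes in 5 lists (rows), 1 point per gene, coloured red where called higher, blue where called lower and grey where not called, with the called genes named. The called genes number 3 on the higher and 7 on the lower side.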

How the data were processed

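The 12 libraries were grouped by their titles, which also give the batch letter (A or B) and a replicate number. Per the labels and methods, the authors used Cutadapt for trimming, Salmon 0.13.1 for counting on GRCh38 and compared groups in DESeq2 with batch correction. The transcript annotation, strand setting and use of molecular identifiers are not given in the sources used here, so counting intervals treat reads as molecules. The deposited values are a signal, reads divided by 1 size factor per library, and are called normalised read counts. The deposited log2 fold changes, the score (stat), p-values and adjusted p-values of the authors were not used. All non-zero values were whole multiples of 1 value per library (100% of 196021, tolerance 1e-06 relative), which gave whole reads.

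Since these are scaled values, limma 3.58.1 (R 4.3.3, intensity trend) was run on log2(normalised read count + 1) of the 13847 genes with a mean of at least 5, with batch and group in the model and Benjamini-Hochberg adjustment over all of them. The interaction of batch and group was added in a second fit. Fold changes on this scale understate changes of low genes. Rates of BCL2 and BBC3 used reads over summed size factors. The procedure was tested on simulated data. Those had the same dispersion for all genes and the same change in both batches, which is simpler than these data. They do not show how often calls are wrong here. The smallest chi-square per degree of freedom between libraries of one group and batch was 4.27, so none was a second sequencing of the same library. The statistic cannot tell libraries made from the same culture from those of separate cultures.

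The members and gene lists were chosen with earlier results of these data known. Named were all members and, of each other list, the called genes by size, at most 5. BCL2A1, BAD, HRK, BMF, APAF1, CASP9, XIAP, DYNLL1, DYNLL2, DDIT3 and ATF4 were named after their values were seen. Some genes of the pathway lists are not reported here. MARCHF5 was matched by its older symbol. Positions are from GENCODE v44 on GRCh38. Alternatives varied the pseudocount (0.5, 4), filter (none, 20), scaling, batch term, replicate block, batch, single libraries and the tool (edgeR 4.0.16 and DESeq2 1.42.0 on recovered reads).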

Additional observations from a re-analysis of the deposited data

Results flagged for a closer look

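In 40 sets of values (10 genes in groups of 6 and in the 4 libraries of each group in batch B) a library far from the others was looked for by Dixon's criterion, by which chance marks about 1 set in 20. That rate is for normal values and does not hold for genes near 0 reads or for sets that pool the batches. In 3 sets the criterion was met. BCL2L2 was at 80.8 normalised read counts in senescent replicate B2, with the other 3 senescent libraries of batch B at 48.1 to 52.3. Its log2 fold change without that library was 0.73 and stayed past both limits. BCL2 was at 3.15 in the same library, which is 3 reads, with 0 reads in the other 3. BBC3 was at 0.795 in non-senescent replicate A2, which is 1 read, with 0 reads in the other 5 non-senescent libraries. For BCL2 and BBC3 the criterion is met by any single library with reads among libraries at 0.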

How the results depend on the processing

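The number of called members was 4 and ranged from 3 to 5 in 10 of 12 alternatives and in the 12 fits that each left out 1 library. Without the batch term it was 2, and in batch A alone, with 2 libraries per group, it was 1 (BCL2L2). The number over all genes was 3237 (1605 higher, 1632 lower) and fell to 2143 without the batch term. With equal library totals 1227 genes were higher and 2098 lower (median log2 change of all genes -0.09, against 0.01 before), and 4 members were called. The pathway lists gave 10 calls, and 7 to 13 in the alternatives. The interaction passed for 0 tested members in each of 6 alternatives. BCL2L1, BAX, MCL1, BAK1 and BCL2 were called in none of their alternatives. BCL2L2, BID and BCL2L11 were called in 11 of 12, the exceptions being no batch term for BCL2L2 and batch A alone for the others. PMAIP1 was called in 9 of 12 (not at a pseudocount of 4, -0.57, without the batch term or in batch A alone). BBC3, in fits without the filter that were added after the data were seen, was called in 9 of 10 and missed in batch A alone (adjusted p 0.121). The log2 fold change of BBC3 ran from 1.14 to 4.19 over these 10 fits. FOXO3 was not called without the batch term (adjusted p 0.124), nor was TP73 (0.161). TP73 was also missed in each batch alone (0.128 in both), and CASP10 without the filter (0.154), without the batch term (0.363) and in batch B alone (0.370). Same-numbered samples of the groups did not deviate together (correlations from -0.05 to 0.02), and no sample correlated best with its own number. With the replicate block 4 members and 3211 genes were called. Depth limits BCL2 and BBC3, and senescent BCL2L11 in batch B (11 to 42 reads).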
